A study of Mus musculus with 31 samples.

Results

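The libraries described here are 8 of the 31 of the series, the Cre-negative controls of batch 1 from 2 tissues. They were taken by genotype, tissue and batch: 4 came from lumbar dorsal root with spinal cord (root libraries 1 to 4) and 4 from lumbar dorsal root ganglion (ganglion libraries 1 and 3, and 2 libraries whose columns carry the same name, called a and b). The labels give the genotype of all 8 as L10a-eGFP-fl/fl. The Cre libraries of batch 1, 4 per tissue and used here for comparison, are Nav1.8-Cre;L10a-eGFP-fl/fl, so the floxed allele is shared by controls and Cre animals and the Cre driver is what the controls lack. The study purified ribosomes carrying a GFP-tagged ribosomal protein L10a (translating ribosome affinity purification, TRAP) from neurons of the Nav1.8 lineage, and sequenced the attached RNA. The labels call the libraries biological replicates but give no sex, age or number of animals per library, so p-values measure the spread between these libraries, whatever its source.

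In TRAP, an antibody to GFP pulls down tagged ribosomes with the messenger RNA they are translating. Without Cre the tagged protein should not be made, and what is sequenced is RNA that came through the purification without a tag: free RNA, untagged ribosomes or RNA stuck to the beads. The root preparation holds the central axons of sensory neurons, the glia around them and the cells of the cord: astrocytes, oligodendrocytes, and inhibitory and excitatory neurons of the dorsal horn. The ganglion holds the cell bodies of sensory neurons, satellite glia, Schwann cells, connective tissue and vessels. The question was which tissue's RNA each background carried, and how evenly.

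Levels are CPM (the count scaled to a common library total), and a gene counted as detected in a library had at least 10 counts there. Totals were 9.51 ± 2.09 M counts (SD, n = 4) in the root and 8.48 ± 0.572 M (n = 4) in the ganglion libraries, where 3 counts correspond to 0.242 to 0.384 CPM. Ganglion library 3 stood apart from the others. Only 4934 genes had 10 counts there, while 8819 genes had 1 to 9 counts, against 2137 to 4029 such genes in the other 7 libraries. Its rank correlation across genes was 0.788 to 0.807 with the 4 Cre ganglion libraries and 0.767 to 0.815 with the 4 Cre root libraries, so it ranked about equally with both. Root library 1 was at 0.882 to 0.905 with Cre root and 0.778 to 0.839 with Cre ganglion. Between 2 control libraries of the same tissue the values were 0.604 to 0.797 in root and 0.485 to 0.650 in ganglion. Genes are not independent replicates, so these values are a description. Whether reads of Cre libraries were assigned to ganglion library 3 was not tested. The main counts are therefore also given without it.

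The 3 genes set beforehand as cord markers for this comparison separated the groups in every library. They were chosen with earlier results of these data known, so their separation is a description and not an independent test. Aldoc, which encodes the glycolytic enzyme aldolase C of astrocytes (GRCm38, chromosome 11, 78322968 to 78327781), was at 1066, 1237, 1939 and 1568 CPM in root libraries 1 to 4. It was at 123, 0.939, 5.72 and 51.2 CPM in ganglion libraries 1, a, 3 and b. All 4 root libraries lay above all 4 ganglion libraries, and relative to their means the ganglion libraries differed among themselves by more than the root libraries did. The fitted log2 difference, root over ganglion, was 4.62 ± 1.37 (SE, n = 4 per group), with an adjusted p of 0.207 by edgeR's quasi-likelihood test, so the difference did not pass the threshold of 0.05. It was 3.54 without ganglion library b and 5.62 without ganglion library 1.

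Slc1a2, the main glutamate transporter of astrocytes (chromosome 2, 102658659 to 102790784), was at 209.7, 309.7, 93.0 and 92.6 CPM in the root libraries. In the ganglion libraries it was at 0.245, 0.117, 0.431 and 0 CPM. These are at most 4 counts per library, close to the 3 counts taken as the smallest readable amount. A fitted fold would rest on the count that edgeR adds to zeros, and none is given.

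Gad1, the enzyme that makes GABA in inhibitory neurons (chromosome 2, 70553072 to 70602014), was even across the root libraries, at 163, 134, 131 and 128 CPM. In ganglion libraries 1, a and 3 it was at 0.245, 0.352 and 0.431 CPM, and in ganglion library b at 16.2 CPM. The groups did not overlap, and ganglion library b alone held more than a trace. The fitted log2 difference was 4.62 ± 2.07 (SE), with an adjusted p of 0.365 by edgeR.

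Scn10a encodes the sodium channel Nav1.8, whose locus drives the Cre (chromosome 9, 119608456 to 119719322). It was at 383, 625, 33.4 and 89.2 CPM in ganglion libraries 1, a, 3 and b. In root libraries 1 to 4 it was at 2.10, 0, 0 and 29.9 CPM. Every ganglion library exceeded every root library, though ganglion library 3 and root library 4 lay close together. The fitted log2 difference was -5.62 ± 2.09 (SE), with an adjusted p of 0.293 by edgeR, and -9.08 without root library 4.

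Rpl10a, the gene of the ribosomal protein that carries the tag (chromosome 17, 28328471 to 28331033), was at 24.7, 78.0, 100.0 and 29.6 CPM in the root libraries. It was at 1.47, 60.2, 0.324 and 0 CPM in ganglion libraries 1, a, 3 and b. The groups overlapped because of ganglion library a. The fitted log2 difference was 1.44 ± 2.19 (SE), with an adjusted p of 0.899 by edgeR. Leaving out ganglion library a moved it to 5.74, and leaving out ganglion library b to 0.88. The counts do not tell the endogenous gene from the tagged copy.

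**Figure D1:**
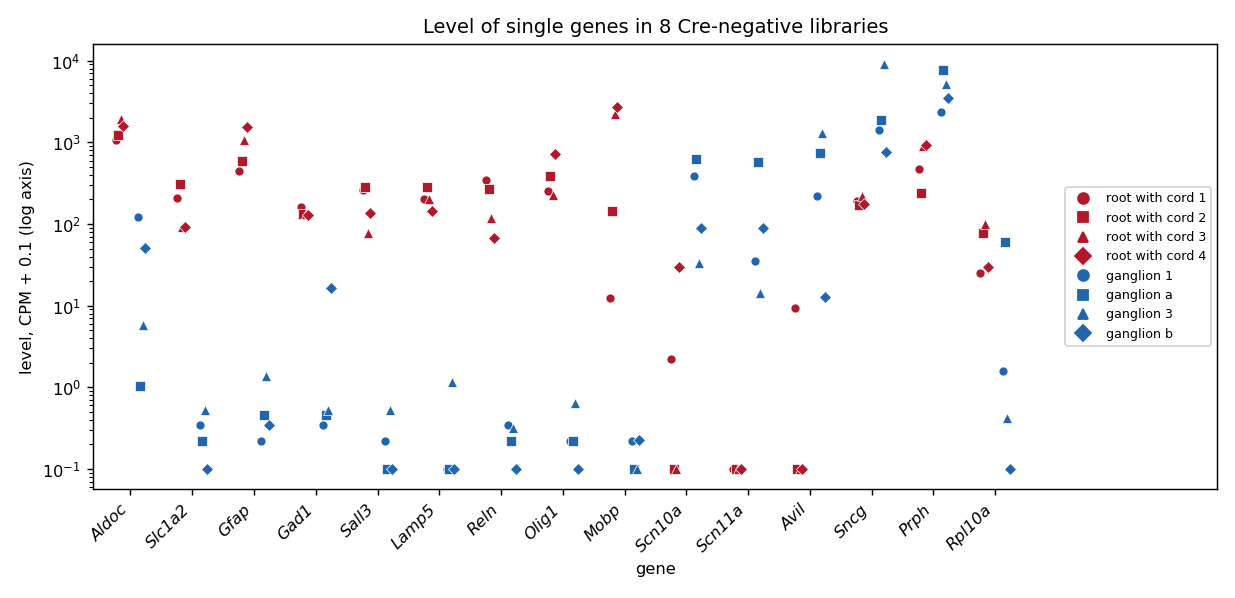
Level of 15 genes in each of the 8 control libraries, as CPM + 0.1 on a log axis, so that a library without counts sits at 0.1. Red marks are root with cord libraries and blue marks ganglion libraries. Aldoc, Slc1a2, Gfap, Gad1 and the other cord genes lie higher in the 4 root libraries, Scn10a to Prph lie higher in the 4 ganglion libraries, and Rpl10a overlaps.

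Across all genes no difference passed the main test. edgeR called 0 of 9202 genes (0.00%) at an adjusted p under 0.05, and the smallest adjusted p was 0.0557, for Mobp. At an unadjusted p under 0.05 there were 1138 genes (12.4%), 786 higher (8.54%) and 352 lower (3.83%) in root. Other scalings gave similar numbers but another split: 386 higher and 780 lower with DESeq2's size factors in edgeR (RLE), 236 and 820 with TMMwsp, and 1015 and 110 with the library total alone. The median fitted log2 difference over all genes was -0.16 with TMM, -0.46 with RLE, -0.39 with TMMwsp and 0.37 with the library total. TMM gave ganglion library 3 a factor of 0.300, against 0.938 to 1.41 in the other 7. The biological coefficient of variation, the spread between replicates of a group beyond counting error, was 1.68 among the controls and 0.589 among the Cre libraries of the same tissues.

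Other analyses did call genes. DESeq2 called 394 genes (4.28%), 335 of them higher (3.64%). limma's voom called 754 (8.19%), 720 higher (7.82%). edgeR limited to the 6163 genes with 10 counts in every library of at least 1 group called 435 (7.06%), 395 higher (6.41%) and 40 lower (0.649%). In these analyses most calls were higher in root. edgeR without a low-count filter gave the opposite split, with 46 of 24509 genes called (0.188%), 43 of them lower (0.175%) and 3 higher (0.0122%), which were Gfap, Mobp and Olig1. DESeq2, voom and the stricter filter shared 261 genes, 257 higher (4.18% of the 6154 tested in all of them) and 4 lower (0.0650%). The 4 lower genes, named because they are so few, were Scn11a, Piezo2, Fstl1 and Prph. The shared higher genes held 6 of the 12 astrocyte genes, 4 of the 10 inhibitory neuron genes, 3 of the 12 oligodendrocyte genes, and none of the 18 Hox, 12 Schwann cell, 6 satellite glia or 82 ribosomal protein genes listed. Hoxb6, which is not on the Hox list and was named after its values were seen, was among the shared higher genes.

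Because the main test called nothing, the lists below are described by whether the 4 root and 4 ganglion values of a gene overlapped. Of the 18955 genes with 10 counts in at least 1 of the 8 libraries, 1421 (7.50%) were higher in all 4 root libraries than in any ganglion library, and 114 (0.601%) were lower. Together these were 8.10% of the genes. With TMM scaling the numbers were 1132 and 207, and without ganglion library 3 they were 1670 and 295. Leaving out a library makes it easier for groups not to overlap. The middle of the distribution was itself shifted: the median over all measured genes of root minus ganglion in mean log2(CPM + 0.5) was 1.15, and 0.53 with RLE scaling. List medians are to be read against that shift. The lists were chosen with earlier results of these data known, so their shares are a description. Of the 18955 genes 9202 passed the count filter of the main test, so the shares over all genes take in genes of low count. In bulk libraries, fewer cells of a type and less RNA per cell cannot be told apart.

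Astrocyte genes stood highest of all lists. The summed level of the 12 genes was 2879, 3644, 4713 and 4629 CPM in root libraries 1 to 4, and 544, 512, 836 and 222 CPM in ganglion libraries 1, a, 3 and b. In 8 of the 12 the groups did not overlap, all higher in root, against 7.50% of all genes. The 8 include Aldoc and Slc1a2, the markers described above. The list's median difference was 6.78, against 1.15 over all measured genes.

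Gfap, the intermediate filament of astrocytes, was at 443, 591, 1074 and 1529.9 CPM in the root libraries. In the ganglion libraries it was at 0.123, 0.352, 1.29 and 0.251 CPM. Aqp4, the water channel of astrocyte endfeet and named after its values were seen, was at 142 to 505 CPM in root and 0 to 0.368 CPM in ganglion. Both were near zero in all 4 ganglion libraries.

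Genes of spinal inhibitory neurons were nearly confined to the root libraries. Their sum over 10 genes was 1101, 1469.9, 279.6 and 589 CPM in root, and 0.613, 0.822, 2.48 and 61.4 CPM in ganglion. In 6 of the 10 genes the groups did not overlap, all higher in root, against 7.50% of all genes, and the median difference was 5.52. The 6 include Gad1, the marker described above. Sall3, a transcription factor, was at 263, 282, 76.9 and 138 CPM in root and at most 0.431 CPM in ganglion. Root library 3 was the lowest of the root libraries for this list, and ganglion library b the highest of the ganglion libraries.

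Among genes of excitatory dorsal horn neurons, 2 of 10 did not overlap, both higher in root, against 7.50% of all genes. Lamp5, a membrane protein of dorsal horn interneurons, was at 200.3, 284, 200.3 and 145 CPM in root, and in ganglion it was at 0 in 3 libraries and at 1.08 CPM in library 3. Reln, the secreted protein reelin, was at 344, 265, 117 and 66.8 CPM in root and at most 0.245 CPM in ganglion. The list's sum overlapped between the tissues, at 465 to 1201 CPM in root and 319 to 972 CPM in ganglion. Zfhx3, a transcription factor, accounted for 258 to 585 CPM of the ganglion sum and was at 373, 324, 43.0 and 204 CPM in root.

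Motor neuron genes were sparse. Slc18a3, the vesicular acetylcholine transporter, was at 63.9, 1.92, 0 and 2.46 CPM in root libraries 1 to 4 and at 0 in all ganglion libraries. Root library 1 alone carried most of it, and none of the 7 motor neuron genes separated the groups. Isl2, which sensory neurons share with motor neurons, was at 609 and 149 CPM in ganglion libraries a and 3 and at most 58.7 CPM in the other 6.

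The oligodendrocyte lineage showed a clear offset with a large spread among the root libraries. Its 12 genes summed to 438, 733, 3099.7 and 4255 CPM in root, and to 313, 21.1, 94.8 and 4.26 CPM in ganglion. In 3 of the 12 the groups did not overlap, all higher in root, against 7.50% of all genes, and the median difference was 2.29 (3.52 without ganglion library 1). Mobp, a protein of central myelin, was at 12.3, 145, 2216 and 2751 CPM in root, and at no more than 1 count per library in ganglion. Olig1, a transcription factor of the lineage, was more even, at 252, 389, 229 and 711 CPM in root and at most 0.539 CPM in ganglion. Root libraries 3 and 4 were high for myelin transcripts, whereas Olig1 did not divide the root libraries in that way.

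Of 7 myelin genes made by both central and peripheral glia, 6 overlapped between the tissues. The exception was Cnp, a myelin enzyme, at 273, 332, 1392 and 2987 CPM in root and 61.6, 123, 1.83 and 198 CPM in ganglion. The list's median difference was 3.35, with 1.01 to 4.59 over the alternatives. Mbp, myelin basic protein, was at 326, 2920.5, 15593 and 23195 CPM in root libraries 1 to 4. It was at 2387, 979, 2.7 and 4223 CPM in ganglion libraries 1, a, 3 and b. Root library 1 lay below 3 of the ganglion libraries, and ganglion library 3 held almost none.

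Genes of peripheral glia gave no common direction. Pmp22, a protein of peripheral myelin, was at 2389, 1011, 5.39 and 1024 CPM in ganglion libraries 1, a, 3 and b and at 48.6, 9.85, 1.98 and 194 CPM in root. 3 of the ganglion libraries lay above every root library, and ganglion library 3 lay among the root libraries. Its fitted log2 difference was -4.46 ± 1.56 (SE), with an adjusted p of 0.266 by edgeR, and -6.13 without root library 4. Over the 12 Schwann cell genes 1 did not overlap: Drp2, higher in root. That share is near the 7.50% of all genes. Without ganglion library 3 there were 1 higher and 2 lower. Their median difference was -0.74. It was 0.72 without ganglion library 1 and stayed negative without any other single library, with -1.62 without ganglion library 3.

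Satellite glia genes were higher in root rather than in ganglion, as far as the sum of the 6 genes goes. It was 3135, 3554, 5326 and 4877 CPM in root and 2624, 2865, 875 and 692 CPM in ganglion. Most of it came from Fabp7 and Apoe, lipid carriers that astrocytes and radial glia make as well, except in ganglion library b. There Ednrb and Glul, glutamine synthetase, at 302 and 145 CPM, gave the larger part. Fabp7 was at 1153, 1006, 2857 and 2659 CPM in root and 577, 596, 864 and 3.76 CPM in ganglion, and was the 1 gene of the list whose groups did not overlap. With TMM scaling none did. Apoe was at 1738 to 2205 CPM in root and at 1537, 2067, 9.60 and 233 CPM in ganglion. Ednrb, an endothelin receptor of satellite glia, was at 436 and 302 CPM in ganglion libraries 1 and b and at 0 and 0.431 CPM in a and 3, a pattern that neither group shared.

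**Figure D2:**
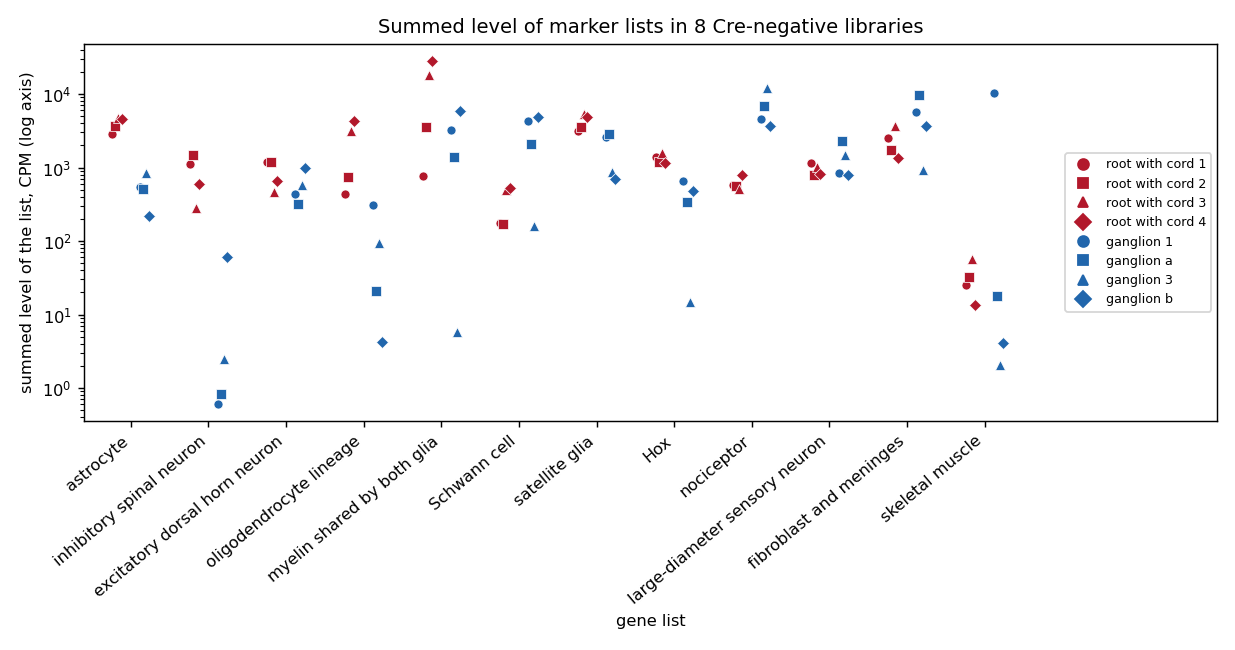
Summed CPM of 12 marker lists in each of the 8 control libraries, on a log axis. Red marks are root with cord and blue marks ganglion libraries. The astrocyte, inhibitory neuron, oligodendrocyte, satellite glia and Hox sums are higher in all 4 root libraries, the nociceptor sum is higher in all 4 ganglion libraries, and the skeletal muscle sum is high in ganglion library 1 only.

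Nociceptor genes had the lowest median of all lists, on the side of the ganglion. The 16 genes summed to 573, 563, 503 and 798 CPM in root libraries 1 to 4, and to 4531, 6965, 11921 and 3706 CPM in ganglion libraries 1, a, 3 and b. Sncg alone gave 9066 CPM of the sum in ganglion library 3. In 6 of the 16 the groups did not overlap, all lower in root, against 0.601% of all genes. The median difference was -3.09, and it stayed negative under every scaling and without any single library (-4.42 to -2.40).

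Scn11a, the sodium channel Nav1.9 of nociceptors, was at 35.1, 567, 14 and 90.6 CPM in ganglion libraries 1, a, 3 and b. No root library held a count of it. It was the only gene with 10 counts in all 4 ganglion libraries and in none of the root libraries, and was named for that reason, after its values were seen. Against 3 counts per library it was at least 542-fold lower in root. Ganglion library a carried most of that mean, and without it the bound was 143-fold.

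Sncg, gamma-synuclein, was at 1427, 1872, 9066 and 755 CPM in ganglion and at 189, 172, 224 and 176 CPM in root. The root libraries lay within a narrow range, and the lowest ganglion library was well above them. The fitted log2 difference was -5.84 ± 1.20 (SE), with an adjusted p of 0.205 by edgeR. It was -9.44 without ganglion library b and -3.06 without ganglion library 3.

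Tac1, the precursor of substance P, was at 417, 363, 582 and 1999 CPM in ganglion and at 147, 83.0, 98.7 and 304 CPM in root. Its groups did not overlap, and the fitted log2 difference was -3.23 ± 1.16 (SE), with an adjusted p of 0.275 by edgeR (-5.76 without ganglion library b). Avil, the actin-binding protein advillin of sensory neurons, was at 219.7, 741, 1301 and 12.8 CPM in ganglion, and root library 1 was the only root library with any, at 9.21 CPM. Prph, the neurofilament-related protein peripherin and among the most abundant ganglion genes, was at 2388, 7734, 5207 and 3506 CPM in ganglion. In root it was at 468, 241, 898 and 935 CPM. The fitted log2 difference of Prph was -3.95 ± 0.92 (SE), with an adjusted p of 0.205 by edgeR. It was -6.95 without ganglion library b and -3.10 without ganglion library 3.

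Markers of large-diameter sensory neurons and of neurons in general did not separate the tissues as lists. Of the 8 large-diameter genes none had groups without overlap, and without ganglion library 3 there were 2, both lower in root. Pvalb, a calcium-binding protein of proprioceptors, was at 405, 121, 553 and 11.4 CPM in ganglion and at 0, 0, 0 and 19.3 CPM in root. Nefl, the light neurofilament chain, was at 2846, 6879.7, 2831 and 2855 CPM in ganglion and at 2069, 1747, 3671 and 2788 CPM in root. Of the 12 general neuron genes 1 did not overlap: Map2, the dendritic microtubule protein, higher in root, at 241 to 640.1 CPM against 0.587 to 41.3 CPM. The sum of that list was 7911 to 11721 CPM in root and 9425 to 23351 CPM in ganglion.

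Hox genes, which mark position along the body axis, were present in both tissues' background but unevenly in the ganglion. The 18 genes summed to 1393, 1206, 1581 and 1162 CPM in root and to 648, 335, 14.8 and 479 CPM in ganglion. In 6 of the 18 the groups did not overlap, all higher in root, against 7.50% of all genes: Hoxb5, Hoxb8, Hoxc8, Hoxc9, Hoxd9 and Hoxd11. With TMM scaling there were 4, and without ganglion library 3 there were 7. Hoxc9, named after its values were seen, was at 55.7, 58.7, 47.9 and 36.0 CPM in root and at 10.7, 4.93, 0.647 and 2.38 CPM in ganglion. Hoxb7 was at 102, 231, 250.4 and 182 CPM in root, and in ganglion at 156 CPM in library a and at most 1.94 CPM in the others. Such a gene was as high in 1 ganglion library as in root and almost missing in the other 3.

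Markers of other cell types mostly overlapped between the tissues, and some stood in 1 library. Skeletal muscle genes summed to 10401 CPM in ganglion library 1 and to at most 57.1 CPM in the other 7. Acta1, skeletal muscle actin, was at 4482 CPM there. Microglia and macrophage genes summed to 57.6 to 95.8 CPM in root and to 1.83 to 221 CPM in ganglion, with 117 CPM of Trem2 in ganglion library a and 0 to 2.75 CPM in the other 7. Col1a1, collagen of fibroblasts and meninges, was at 693, 529.5, 830.5 and 359 CPM in root and at 1757, 2052, 89.3 and 2054 CPM in ganglion, where library 3 was again the low one. Ependymal genes were low, but their sum did not overlap, at 32.0 to 96.4 CPM in root and at most 0.755 CPM in ganglion. Taken singly, 0 of the 5 ependymal genes separated the groups.

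The sums of genes for ribosomes, the respiratory chain and the proteasome overlapped between the tissues. Of the 82 measured cytosolic ribosomal protein genes 1 was higher in root without overlap (Rps12) and 4 were lower (Rpl8, Rps9, Rplp2 and Rpl37a). Rpl8 was at 284, 464, 396 and 372 CPM in root and at 538, 935, 879 and 548 CPM in ganglion. Of the 74 respiratory chain genes 4 were higher (Sdha, Atp5b, Ndufs1 and Uqcrc2) and 4 lower (Ndufa5, Ndufb3, Cox7a2 and Ndufc1), and of the 31 proteasome genes 1 was lower (Psmc3). These counts stand beside 7.50% higher and 0.601% lower over all genes, so lower genes were rare in general. Atp5b, the catalytic subunit of ATP synthase, was at 2445, 1493, 2600.3 and 1551 CPM in root and at 911, 884, 27.1 and 1363 CPM in ganglion. Without ganglion library 3 the ribosomal counts were 4 higher and 6 lower, and the respiratory chain counts 5 and 4. With TMM scaling the ribosomal counts were 1 and 7, and the respiratory chain counts 0 and 7, so that no respiratory chain gene was higher in root.

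Nuclear and mitochondrial RNA varied mainly among the ganglion libraries. Malat1, a nuclear noncoding RNA, was at 30866, 7587, 313 and 7224 CPM in ganglion libraries 1, a, 3 and b and at 1757, 3827, 2528 and 5198 CPM in root. mt-Nd1, made inside mitochondria, was at 7060.1, 2713, 11.8 and 685 CPM in ganglion and at 1095, 531, 206 and 498 CPM in root. Ganglion library 3 was lowest for both, and ganglion library 1 highest. Malat1 was not typical of the 11 nuclear noncoding genes listed, of which 10 had a positive difference, root minus ganglion. The median difference of that list was 1.79, against 1.15 over all measured genes. With RLE scaling it was 0.36, against 0.53. Mitochondria-encoded genes together took 0.226 ± 0.137% of counts in root and 0.758 ± 0.817% in ganglion (SD, n = 4; exact two-sided permutation p = 0.4, adjusted 0.467). Long noncoding genes took 1.77 ± 0.418% and 2.5 ± 1.8% (SD, n = 4; exact permutation p = 0.6, adjusted 0.6).

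**Figure D3:**
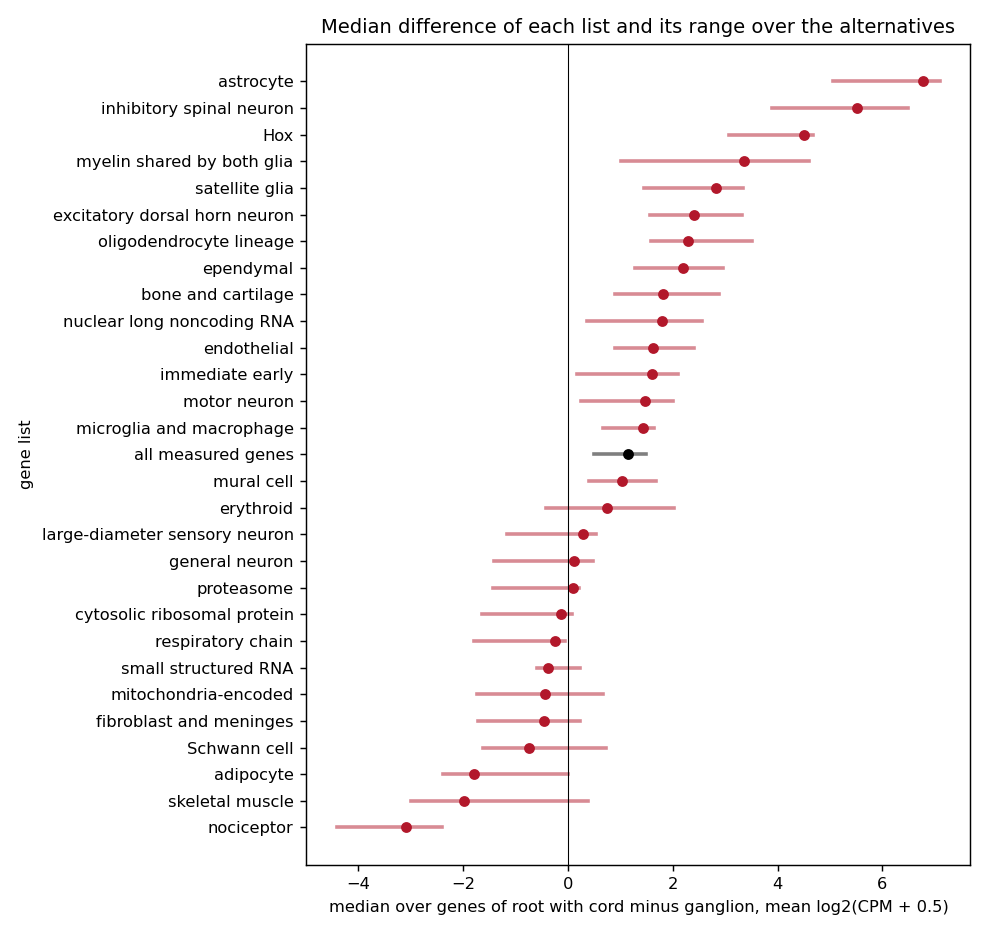
Median over the genes of each list of root with cord minus ganglion in mean log2(CPM + 0.5). Dots are the values as reported and bars run over the scalings, the other added CPM and each left-out library. Astrocyte genes stand at 6.78, nociceptor genes at -3.09 and all measured genes (black) at 1.15.

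The tissues also differed in how many genes the background held. Root libraries 1 to 4 had 15153, 10890, 7251 and 13355 genes with 10 counts, and ganglion libraries 1, a, 3 and b had 6426, 6053, 4934 and 7889. The groups overlapped, since root library 3 lay below ganglion library b. The means were 11662 ± 3421 and 6326 ± 1220 (SD, n = 4), with an exact two-sided permutation p of 0.0571 and an adjusted p of 0.2 over the 7 library measures tested. The smallest p that 4 against 4 libraries allow is 0.0286. The 100 most abundant genes took 15.5 ± 1.70% of counts in root and 21 ± 5.13% in ganglion, without overlap (exact permutation p = 0.0286, the smallest possible, adjusted 0.2). Ganglion library 3, at 28.7%, widened that difference; the other 3 ganglion libraries were at 17.8 to 18.9%, and the highest root library at 16.9%.

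Most genes of the ganglion background appeared in some libraries and not in others. Of 12097 genes with 10 counts in any ganglion library, 2243 (18.5%) had them in all 4 and 5293 (43.8%) in only 1. Ganglion library 3, with 4934 such genes, set an upper limit on the count for all 4. The detection patterns given here were not counted again without it. In root 17799 genes were found, 5856 (32.9%) in all 4 and 4878 (27.4%) in 1. The Cre libraries of the same tissues were more even, with 67.6% of genes in all 4 root and 70.2% in all 4 ganglion libraries. There were 583 genes with 10 counts in all 4 root and no ganglion library, against the single gene Scn11a in the other direction, and 1936 genes were found in all 8.

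**Figure D4:**
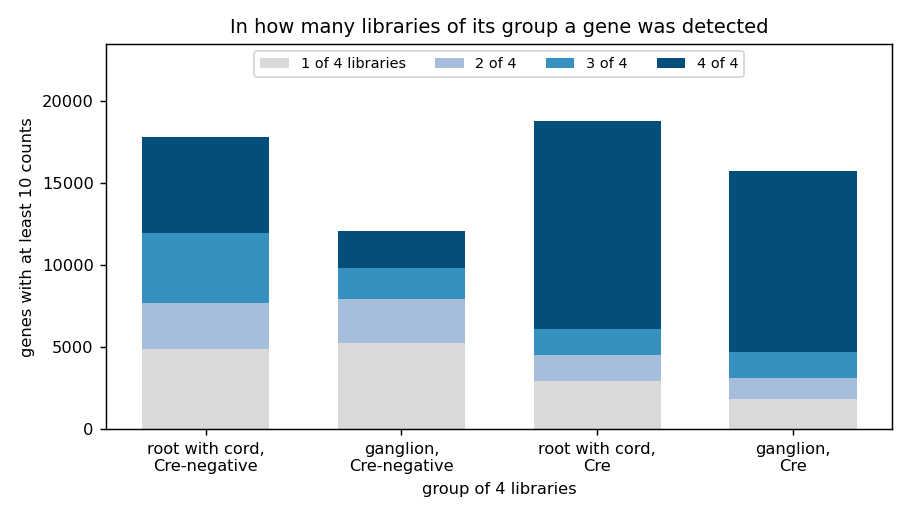
Number of genes with at least 10 counts in 1, 2, 3 or 4 libraries of a group, for the control and Cre libraries of both tissues. The dark part of the bar, genes found in all 4 libraries, is 18.5% of the ganglion controls and 32.9% of the root controls, and over 67% of either Cre group.

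The same tissue difference was then measured among the Cre libraries, which share no library with the controls. There edgeR called 1990 of 14480 genes (13.7%), 1250 higher in root (8.63%) and 740 lower (5.11%). With the library total alone as scaling it called 2146 higher and 293 lower. Leaving out Cre root library 4 gave 822 calls and leaving out Cre root library 1 gave 2717, the extremes over the 8 Cre libraries. Of the 1234 higher genes that were measured in the controls, 1200 (97.2%) had a positive difference there too, against 76.5% of all measured genes. In 357 (28.9%) the control groups did not overlap in the same direction, against 7.50% of all genes, and in 0 they did so in the opposite direction. Of the 731 lower genes, 374 (51.2%) had a negative difference in the controls, against 23.5% of all measured genes. In 43 (5.88%) the control groups did not overlap in that direction, against 0.601% of all genes, and in 16 they did so in the other direction. The called genes had passed a count filter in the Cre libraries. The shares of all genes also include genes that did not, so the bases differ. Over 9146 genes fitted in both, Pearson's r between the log2 differences was 0.445 and Spearman's rho 0.406.

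The marker genes can be set side by side in both contrasts. In the Cre libraries Slc1a2 was at 28.7 to 135 CPM in root and 0 to 1.85 CPM in ganglion. Gad1 was at 37.2 to 169 and 1.27 to 6.99 CPM, with a fitted log2 difference of 4.22 ± 0.58 (SE) and an adjusted p of 0.000763 by edgeR, so it was called there. Aldoc was at 445 to 1520.0 CPM in Cre root and 138 to 333 CPM in Cre ganglion, with a log2 difference of 1.30 ± 0.40 (SE) and an adjusted p of 0.0478 by edgeR. For these 3 genes the levels in Cre root overlapped those of the root controls. Lamp5 did not: it was at 62.5 to 136 CPM in Cre root, below the 145 CPM of the lowest root control.

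Nociceptor genes were set side by side in the same way. In Cre root Scn10a was at 45.1 to 421 CPM and Scn11a at 23.5 to 135 CPM, against 0 to 29.9 and 0 CPM in the root controls. Sncg was at 1836 to 4918 CPM in Cre root, above the 172 to 224 CPM of the root controls. The log2 difference between the tissues was -1.40 ± 0.64 (SE) for Sncg in the Cre libraries, with an adjusted p of 0.165 by edgeR. The difference between the 2 contrasts was tested directly over all 16 libraries: for Sncg it was -4.0 ± 1.01 (SE), with an adjusted p of 0.102 by edgeR, and for Gad1 0.27 ± 1.74 (SE), with an adjusted p of 0.981. Neither passed.

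No gene passed the test of the difference between contrasts. edgeR called 0 of 15355 (0.00%), with 3133 genes at an unadjusted p under 0.05 and a smallest adjusted p of 0.0729, for Scn11a. DESeq2 called 582 and voom 358. Ganglion library 3 decided that number: without it edgeR called 1111 genes, 1031 higher and 80 lower in the control contrast, while leaving out any other control library gave 0 to 2.

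**Figure D5:**
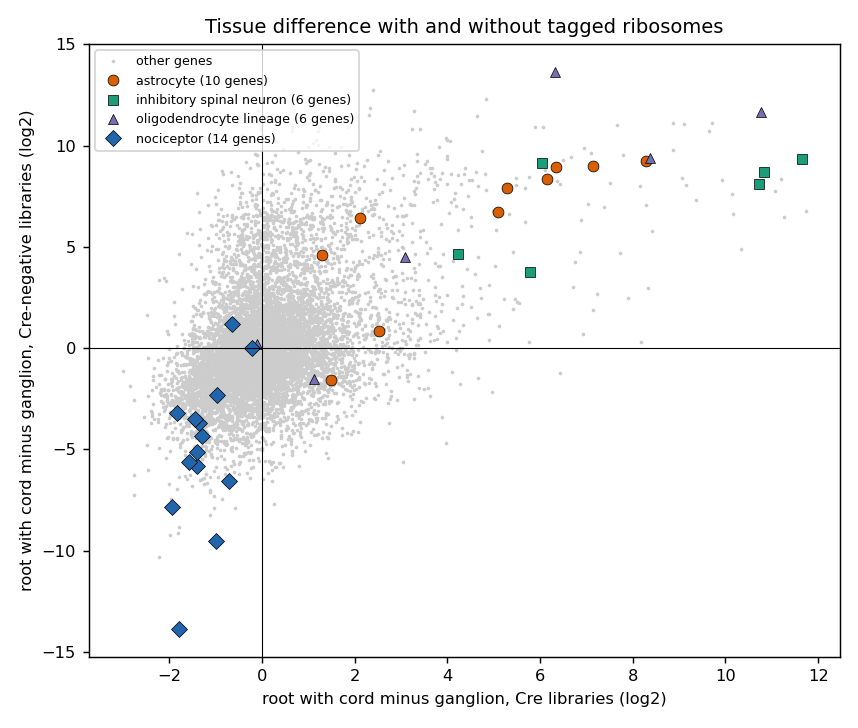
Fitted log2 difference between root with cord and ganglion for 9146 genes, in the Cre libraries (horizontal axis) and in the Cre-negative libraries (vertical axis). Astrocyte, inhibitory neuron and oligodendrocyte genes lie mostly to the upper right, nociceptor genes mostly to the lower left. Values of genes without counts in a group depend on the count that edgeR adds to zeros.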

How the data were processed

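The authors deposited raw counts per gene for 55536 genes, 1 table per batch and 1 column per library, per the file headers. STAR 2.7.2b and mm10 are named in the submitters' processing notes. The counting program, strand, multimapped reads and duplicates are not given in the sources used here. Per the labels' protocols, RNA was under 1 ng (ganglion) or under 100 pg (root), and libraries were made with SMART-Seq v4; without molecular identifiers, floors cover counting error only. All identifiers matched GENCODE M21 (GRCm38).

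Each comparison was fitted on the counts with edgeR 4.0.16 (R 4.3.3): filterByExpr (minimum count 10, minimum total 15), TMM, estimateDisp, glmQLFit and glmQLFTest, Benjamini-Hochberg over all genes tested, called at an adjusted p under 0.05. The SE is the log2 difference divided by the square root of F. limma 3.58.1 (voom) and DESeq2 1.42.0 were alternatives; DESeq2 left 2092 adjusted p as NA. Fits were checked on simulated counts. Measured genes had 10 counts in at least 1 of the 8 libraries. No replicate columns were copies (chi-square per degree of freedom 139 to 1261).

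Members and the 28 gene lists were chosen with earlier results of these data known. Named by rule were Aldoc, Gad1, Slc1a2, Scn10a, Rpl10a, up to 10 called genes per direction (5 for the difference of contrasts), the 3 most abundant members per list and the 5 most abundant genes per group; genes outside it are marked in the text or were named because a count was small. Some of the genes that this rule names are not reported here.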

Additional observations from a re-analysis of the deposited data

Results flagged for a closer look

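Single libraries that stood apart from the other 3 of their group were looked for in 8 library measures, 28 list sums and the levels of the 40 genes described. A library was marked when its gap to the nearest other library, as a share of the group's whole range, exceeded Dixon's 95% critical value for 4 values. For independent, normally distributed values chance marks about 1 group in 20. Many of the values here are skewed or hold zeros, and some groups share genes, so that rate need not hold. Marked were 25 of 152 groups, and this number is not read against chance.

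Ganglion library 1 was marked for the high sum of skeletal muscle genes (gap 0.998 of the range) and for Acta1 (1.000), for the adipocyte sum (0.928) and for Bcas1, an oligodendrocyte gene (0.993). Ganglion library a was marked for the bone and cartilage sum (0.989), Trem2 (0.999), Nefl (0.994), Hoxb7 (0.988), Rpl10a (0.976) and Scn11a (0.862). In all of these it was the high library.

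Ganglion library 3 was marked as high for the share of the 100 most abundant genes (0.904), the ependymal sum (0.845, all values under 1 CPM), Sncg (0.866) and Lamp5 (1.000), and as low for Col1a1 (0.849). Ganglion library b was marked as high for the inhibitory neuron sum (0.969), Gad1 (0.988) and Tac1 (0.866), and as low for Aqp4 (0.879, all values under 1 CPM). Ganglion library b held 16.2 CPM of Gad1.

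Among the root libraries, library 1 was marked as high for Slc18a3 (0.962), Avil (1.000), Trem2 (1.000) and the adipocyte sum (1.000), the last 3 with counts in no other root library. Root library 4 was marked as high for Scn10a (0.930) and Pvalb (1.000), both genes of sensory neurons.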

How the results depend on the processing

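The count of genes called between the control tissues moved from 0 to 5 with the library total as scaling (Gfap, Mobp and Olig1 higher, Sncg and Prph lower), 46 without the low-count filter (3 higher and 43 lower), 435 with the stricter filter, 394 with DESeq2, 754 with voom and 3855 with all 4 groups of batch 1 in one fit, where the Cre libraries share in the estimate of spread. It stayed 0 with RLE and TMMwsp. Leaving out each library gave 0 to 4. Without ganglion libraries 1 and 3 it was 2 (Gfap and Zcchc18), and without ganglion 3 and root 1 also 2 (Gfap and Mobp); both were chosen after seeing the data.

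The count for the difference of contrasts moved from 0 to 1 with RLE (Scn11a), 582 with DESeq2 and 358 with voom, and 0 to 1111 over single left-out libraries. The Cre contrast gave 822 to 2717 over left-out libraries, 2063 with RLE, 2439 with library totals and 2226 with a replicate block. Genes without overlap were 872 higher with RLE and 717 with TMMwsp; the lower ones were 207 with TMM, 290 with RLE and 261 with TMMwsp. Over left-out libraries they were 1489 to 3126 and 133 to 295. Without ganglion library 1 the long noncoding share turned from lower to higher in root, by 0.107 percentage points (range over libraries -1.31 to 0.107). The causes of these changes were not tested.

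Only numbers 1 and 3 occur in both control groups, and same-numbered libraries did not deviate together (r = -0.013 and 0.065). With the replicate block over these 2 pairs edgeR called 0 of 9409 genes, with 14 at an unadjusted p under 0.05.

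The 8 genes with a printed control difference kept its direction under every alternative. Of 28 lists, 17 kept the sign of their median. Depth limits readings under 0.242 to 0.384 CPM, and differences between libraries of a group were larger than counting error.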

Other observations

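Ganglion controls of batch 2, another 4 Cre-negative libraries outside the comparison, give a further reading of the ganglion background. Their astrocyte sum was 339 to 501 CPM, within the 222 to 836 CPM of batch 1, and their nociceptor sum was 4780.2 to 8454 CPM, within 3706 to 11921 CPM. Slc1a2 was at 0 to 0.740 CPM, Gfap at 0 to 5.53 CPM and Gad1 at 0 to 8.19 CPM in them. Scn11a was at 119 to 288 CPM and Prph at 2678 to 4608 CPM. Rpl10a, at 114 to 184 CPM, lay above all 8 control libraries of batch 1. Skeletal muscle genes summed to 33.8 to 1079.9 CPM, so ganglion library 1 of batch 1, at 10401 CPM, was the highest of the 8 ganglion controls. The batches have separate tables, and no test was made between them.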
